A study of Mus musculus with 4 samples.

Results

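10 early-response genes that feed back on cell signalling were followed in the prelimbic cortex of adult male mice: the MAP kinase phosphatase genes Dusp1, Dusp4, Dusp5 and Dusp6, the immediate early response genes Ier2 and Ier5, and Btg2, Sik1, Trib1 and Plk2. All probe sets that the platform annotation pairs with one of these symbols and no other were taken, each kept separate, which gave 16 probe sets for the 10 genes of the 45101 probe sets and 18193 named genes in the table. A probe set is a group of short probes on the array that together read one stretch of transcript. Of the genes, 5 had 1 probe set, 4 had 2 and Ier5 had 3. Probe sets of the same gene read the same RNA and are no replicates of one another.

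RNA came from tissue punches of the prelimbic part of the medial prefrontal cortex, taken from male mice on postnatal day 90, and was measured on Affymetrix 3' expression arrays. The 2 fluoxetine arrays came from mice exposed before birth to fluoxetine, a drug that blocks the serotonin transporter, and the 2 untreated arrays from control mice. The labels name no strain, dose or exposure window and do not say whether an array held one mouse or a pool, or whether littermates were used. The series describes the arrays of a group as biological duplicates. The p-values here rest on the spread between 2 arrays a group, joined by a variance borrowed from other probe sets of like intensity. The borrowed part weighs more, with 5.32 prior degrees of freedom against 2 residual ones.

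Early-response genes are transcribed within minutes of a stimulus, without new protein synthesis, from promoters bound by factors such as CREB and SRF that are already in the nucleus. Many of them encode proteins that shut down the signals that induced them. Dual-specificity phosphatases remove phosphate from MAP kinases, with Dusp6 acting on ERK in the cytoplasm and Dusp4 and Dusp5 in the nucleus, and Sik1 phosphorylates the CREB coactivators of the Crtc family and so keeps them out of the nucleus. In cortex these transcripts follow neuronal activity, and Plk2 is known for lowering excitatory synaptic strength after prolonged activity.

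The start-site regions available for some of the members show what those genes do and do not share in sequence. RefSeq promoter sequences (build GRCm38.p6) were matched by symbol for 6 of the 10 genes, namely Dusp1, Dusp5, Dusp6, Ier5, Btg2 and Plk2. No entry was found for Sik1, Dusp4 and Ier2, which differed between the groups, or for Trib1. The 250 bases before the start are printed 5′ to 3′ in the gene's direction for 3 genes that differed between the groups (Ier5, Dusp6 and Btg2) and 2 that did not pass the test (Dusp1 and Dusp5). Capitals mark matches, on either strand, to the CRE half-site TGACG bound by CREB, its full palindrome TGACGTCA (which holds the half-site once on each strand) and the CArG box bound by SRF. The Ier5 region is chr1:155099637-155099886 on the minus strand, that of Dusp6 chr10:99262981-99263230 on the plus strand and that of Btg2 chr1:134079156-134079405 on the minus strand. Those of Dusp1 and Dusp5 are chr17:26508473-26508722 on the minus strand and chr19:53528895-53529144 on the plus strand.
Ier5: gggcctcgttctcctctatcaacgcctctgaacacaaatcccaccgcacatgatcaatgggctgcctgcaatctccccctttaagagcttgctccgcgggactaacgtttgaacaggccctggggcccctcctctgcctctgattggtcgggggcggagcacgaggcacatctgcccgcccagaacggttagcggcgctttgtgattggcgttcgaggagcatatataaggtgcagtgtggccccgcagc
Dusp6: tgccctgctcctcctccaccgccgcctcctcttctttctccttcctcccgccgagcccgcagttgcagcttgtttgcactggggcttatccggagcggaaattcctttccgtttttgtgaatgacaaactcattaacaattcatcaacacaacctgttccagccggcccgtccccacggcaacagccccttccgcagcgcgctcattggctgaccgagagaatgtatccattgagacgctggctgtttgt
Btg2: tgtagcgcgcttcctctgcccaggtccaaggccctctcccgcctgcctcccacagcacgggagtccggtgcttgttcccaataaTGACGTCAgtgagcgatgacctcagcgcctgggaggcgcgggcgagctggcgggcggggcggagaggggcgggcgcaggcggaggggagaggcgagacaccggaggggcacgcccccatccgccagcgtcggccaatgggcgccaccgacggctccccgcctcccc
Dusp1: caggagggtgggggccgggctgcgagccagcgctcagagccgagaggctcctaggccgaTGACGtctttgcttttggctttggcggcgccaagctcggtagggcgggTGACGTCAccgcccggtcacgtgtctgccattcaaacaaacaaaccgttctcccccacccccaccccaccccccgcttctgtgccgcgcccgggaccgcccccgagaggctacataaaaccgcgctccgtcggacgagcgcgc
Dusp5: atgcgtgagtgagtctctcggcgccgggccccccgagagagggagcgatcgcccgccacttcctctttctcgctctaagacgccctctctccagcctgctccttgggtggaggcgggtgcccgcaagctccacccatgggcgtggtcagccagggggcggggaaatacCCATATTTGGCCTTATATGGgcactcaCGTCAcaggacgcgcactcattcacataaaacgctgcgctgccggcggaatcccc

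The full CRE occurred in 3 of the 6 members' windows, starting 143 bases before the start in Dusp1, 166 in Btg2 and 62 in Plk2. It occurs in 1.55% of the 32851 promoters of this length in the table, and the half-site in 17.8%. The windows of Dusp1, Btg2 and Plk2 were 68.4%, 73.2% and 68.4% G or C, against a median of 52.4% over all promoters. The shares were not matched for this content. Dusp5 held a half-site 55 bases before the start and a pair of adjoining CArG boxes 82 and 72 bases before it, a motif found in 1.47% of promoters. The windows of Ier5 and Dusp6 held none of these letters, and none of the 6 held the AP-1 site TGANTCA, which 6.75% of promoters hold. A match is a string of letters and not a bound site, and no binding was measured here. On the arrays, of the 3 genes with a full CRE in this window, Btg2 was lower with fluoxetine, while Dusp1 and Plk2 did not pass the test. A contrast between these 3 genes was not tested.

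The arrays were alike as wholes. Their median log2 intensities lay between 6.44 and 6.50, and any pair of arrays correlated at 0.996 to 0.997 over all probe sets. Lower quartiles ran from 4.42 to 4.57 and upper ones from 8.68 to 8.78. The untreated arrays correlated at 0.9963 with each other and at 0.9970 and 0.9967 with fluoxetine replicate 2. The fluoxetine arrays correlated at 0.9972 with each other, the highest of any pair, and fluoxetine replicate 1 at 0.9958 and 0.9957 with the untreated arrays. On this measure the untreated arrays were each closer to fluoxetine replicate 2 than to each other. Of the markers of cortical excitatory neurons, 5 of 6 had a named probe set and all 5 lay above the median level. On the main probe set 1 of the 5, Neurod6, was higher with fluoxetine by 0.24 (SE 0.08) at an unadjusted p below 0.05 in limma. The summed linear intensity of the 5 with fluoxetine was 1.01 times that without. Markers of the neighbouring striatum had a named probe set for 5 of 7 genes, all above the median level as well. Their summed linear intensity was 3778 and 4922 on the fluoxetine arrays against 4256 and 9094 on the untreated arrays, highest on untreated replicate 2. Of 4 meningeal fibroblast markers, 2 were higher with fluoxetine at an unadjusted p below 0.05 in limma, Dcn and Col1a2. The list summed to 914 and 913 against 793 and 830. On the main probe set Lum differed by 0.06 and the dimmer Col1a1 by −0.12, both without passing. Of 5 astrocyte markers 1 was higher there and 8 of their 20 probe sets were, with sums of 13730 and 14183 against 13060 and 13539. Of 5 oligodendrocyte markers 1 was lower, while of their 18 probe sets 2 were higher and 2 lower. No marker of microglia (6) or of endothelial and mural cells (8) passed on its main probe set. Of all their probe sets, 1 of 9 and 4 of 17 were higher, and 1 and 1 lower. The shares among all probe sets tested were 5.46% higher and 3.33% lower, and above the median level 9.03% and 1.98%. By main probe set they were 3.25% and 3.34%. Poly-A control transcripts added before labelling had a median difference of 0.24 toward fluoxetine, with 24 of 24 probe sets higher, although their array medians overlapped (7.94 and 8.16 with fluoxetine, 7.53 and 8.02 without). The 3' minus 5' signal, a measure of RNA integrity, was lower with fluoxetine for Actb and Gapdh, by a change of −0.09 and −0.04 with no overlap of the groups, and higher for Tfrc and Pcx, by 0.15 and 0.14 with overlap. The part of these array properties in the differences below was not tested, but values without each array are given. Only 1 probe set of the 45037 tested, or 0.00222%, had an adjusted p below 0.05, and it reads Homer1, which is no member.

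The comparison of fluoxetine with untreated mice asks what prenatal exposure left behind in the adult cortex. The 10 genes did not move as a block. On the log2 scale, Sik1, Ier5, Dusp4 and Dusp6 were higher with fluoxetine by 0.67, 0.41, 0.33 and 0.24, while Btg2 and Ier2 were lower by a change of −0.35 and −0.29. Dusp1, Dusp5, Trib1 and Plk2 did not pass the test. In tissue RNA, fewer cells of a type and less RNA per cell cannot be told apart. These are the values of each gene's main probe set, the one with the highest mean over the 4 arrays.

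At an unadjusted p below 0.05 in limma, 6 of the 16 probe sets were higher and 3 lower, and the remaining 7 failed the test. Over all probe sets tested, 5.46% were higher and 3.33% lower by the same rule. All 9 that passed lay above the median level of all probe sets, as did 13 of the 16, and above that level the background was 9.03% higher and 1.98% lower. The 6 include every Ier5 probe set and the 3 every Btg2 probe set. By main probe set, 4 of 10 genes were higher and 2 lower, against 3.25% and 3.34% of all main probe sets. Above the median level, where all 10 lie, those shares were 4.47% and 2.23%. The members were chosen with earlier results of these data known, so these shares are description and no test. The groups did not overlap for 10 probe sets with fluoxetine above and 3 with fluoxetine below, against 17.8% and 21.1% of all probe sets. None of the 16 had an adjusted p below 0.05 over the 45037 probe sets, where the members ran from 0.357 to 1. The median difference over the 16 probe sets was 0.13, against −0.01 over all probe sets. The size of the differences, taken without sign, had a median of 0.27 over the 13 members above the median level and 0.07 over all probe sets above it.

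**Figure D1:**
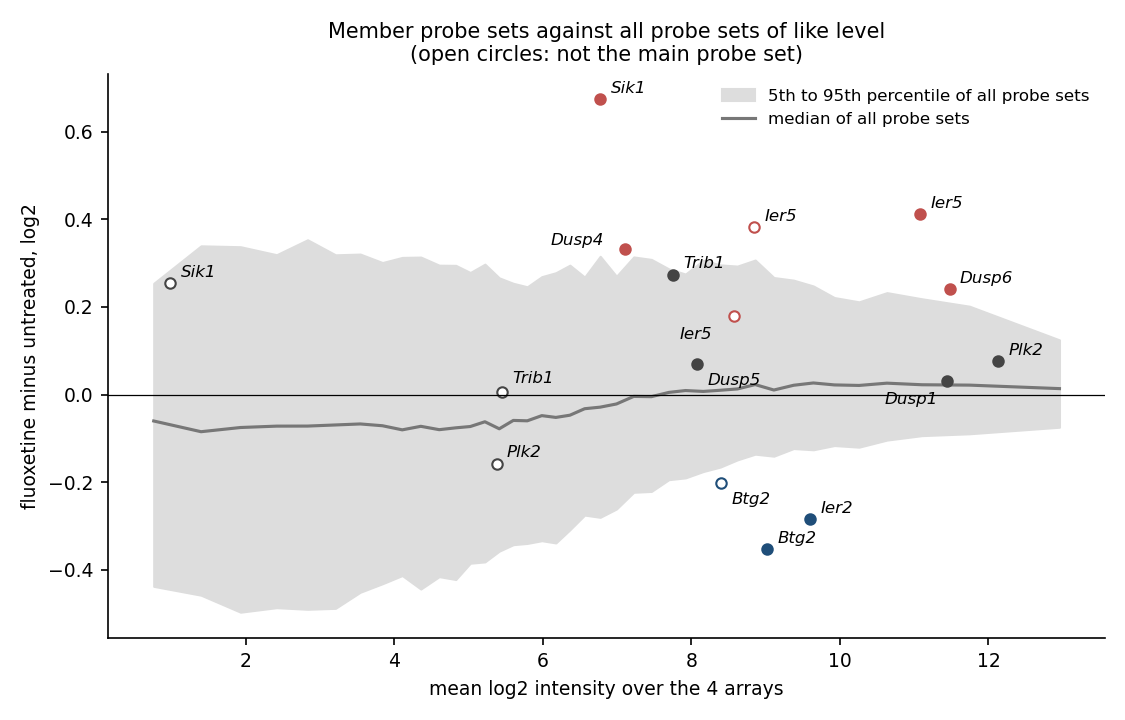
Difference between fluoxetine and untreated (log2, vertical) against mean log2 intensity over the 4 arrays (horizontal) for the 16 member probe sets, with the 5th to 95th percentile of all probe sets of like level in grey. Sik1, at 0.67, and the Ier5 probe sets at 0.41 and 0.38 lie above the grey band and Btg2 and Ier2 below it, while Dusp1, Dusp5 and Plk2 lie inside.

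Among the MAP kinase phosphatases, the ERK-specific Dusp6 (1415834_at) read 11.65 and 11.55 on the fluoxetine arrays and 11.37 and 11.34 on the untreated arrays. Both fluoxetine arrays stood above both untreated arrays, and the groups lay further apart than the arrays within either. Its log2 difference was 0.24 (SE 0.05, n = 2 and 2), or 1.18-fold, with an adjusted p of 0.381 in limma.

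Dusp4, a nuclear phosphatase of ERK and JNK, was read by a dimmer probe set (1428834_at) at 7.20 and 7.35 with fluoxetine and 7.00 and 6.89 without. The groups did not overlap here either, with fluoxetine replicate 2 highest and untreated replicate 2 lowest. The difference was 0.33 (SE 0.11), or 1.26-fold, with an adjusted p of 0.471 in limma. The call at an unadjusted p below 0.05 was lost without fluoxetine replicate 2, where the difference was 0.26, and without untreated replicate 2, where it was 0.28.

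The other phosphatase genes of the set showed no such gap. Dusp1, the stress-induced nuclear phosphatase that also acts on p38 and JNK, read 11.48 and 11.44 with fluoxetine and 11.44 and 11.42 without (1448830_at). The nearest arrays of the groups were equal to 2 decimals, and the 95% interval of the difference ran from −0.08 to 0.14. The Dusp6 estimate of 0.24 lies outside it, but the Dusp6 interval, 0.12 to 0.36, meets it. A contrast between these genes was not tested. Dusp5, an ERK phosphatase of the nucleus, read 8.14 and 8.09 with fluoxetine and 7.95 and 8.14 without (1437199_at). Its groups overlapped, and the interval of −0.15 to 0.29 covers the difference of Dusp6.

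**Figure D2:**
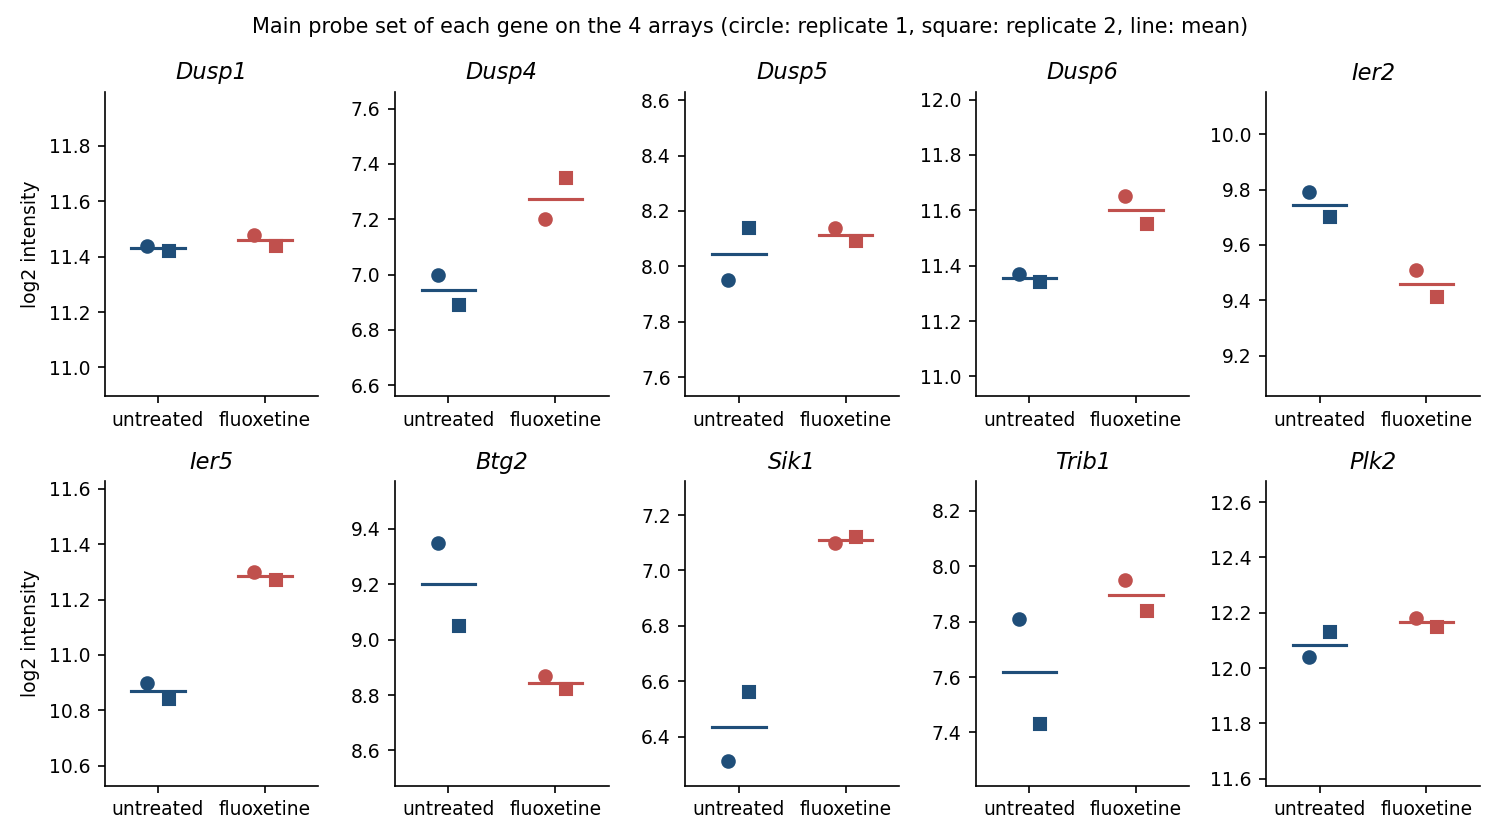
Log2 intensity of the main probe set of each of the 10 genes on the 4 arrays, untreated in blue and fluoxetine in red, with circles for replicate 1, squares for replicate 2 and a line at each group's mean; every panel spans the same range around its own mean. Sik1, Ier5, Dusp4 and Dusp6 stand higher with fluoxetine and Ier2 and Btg2 lower, and in Dusp5 the groups overlap.

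The members of the Ier family, small nuclear proteins, differed in opposite directions. Ier5, a regulator that acts with heat shock factor HSF1, read 11.30 and 11.27 with fluoxetine and 10.90 and 10.84 without on its main probe set (1417612_at). The arrays of a group lay within 0.06 of each other, and the groups were far apart by comparison. The difference was 0.41 (SE 0.05, 95% interval 0.29 to 0.53), or 1.33-fold, with an adjusted p of 0.357 in limma. By unadjusted p this probe set ranked 7 among the 45037.

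The other Ier5 probe sets gave the same direction. The brighter of them (1417613_at) read 9.01 and 9.05 with fluoxetine and 8.69 and 8.61 without, a difference of 0.38 (SE 0.07). The last (1460009_at) read 8.68 and 8.64 against 8.45 and 8.51, a difference of 0.18 (SE 0.07). In all 3, both fluoxetine arrays were above both untreated arrays, but the last kept its call at an unadjusted p below 0.05 in only 1 of the 4 fits with an array left out, while the other two kept theirs in all 4.

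Ier2, which is induced by growth factors and neuronal activity, was read by one probe set (1416442_at) at 9.51 and 9.41 with fluoxetine and 9.79 and 9.70 without. Here the untreated arrays stood highest and the groups did not overlap. The difference was −0.29 (SE 0.07, 95% interval −0.45 to −0.12), so that fluoxetine arrays were 1.22-fold lower, with an adjusted p of 0.410 in limma. The intervals of Ier2 and Ier5 do not meet.

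**Figure D3:**
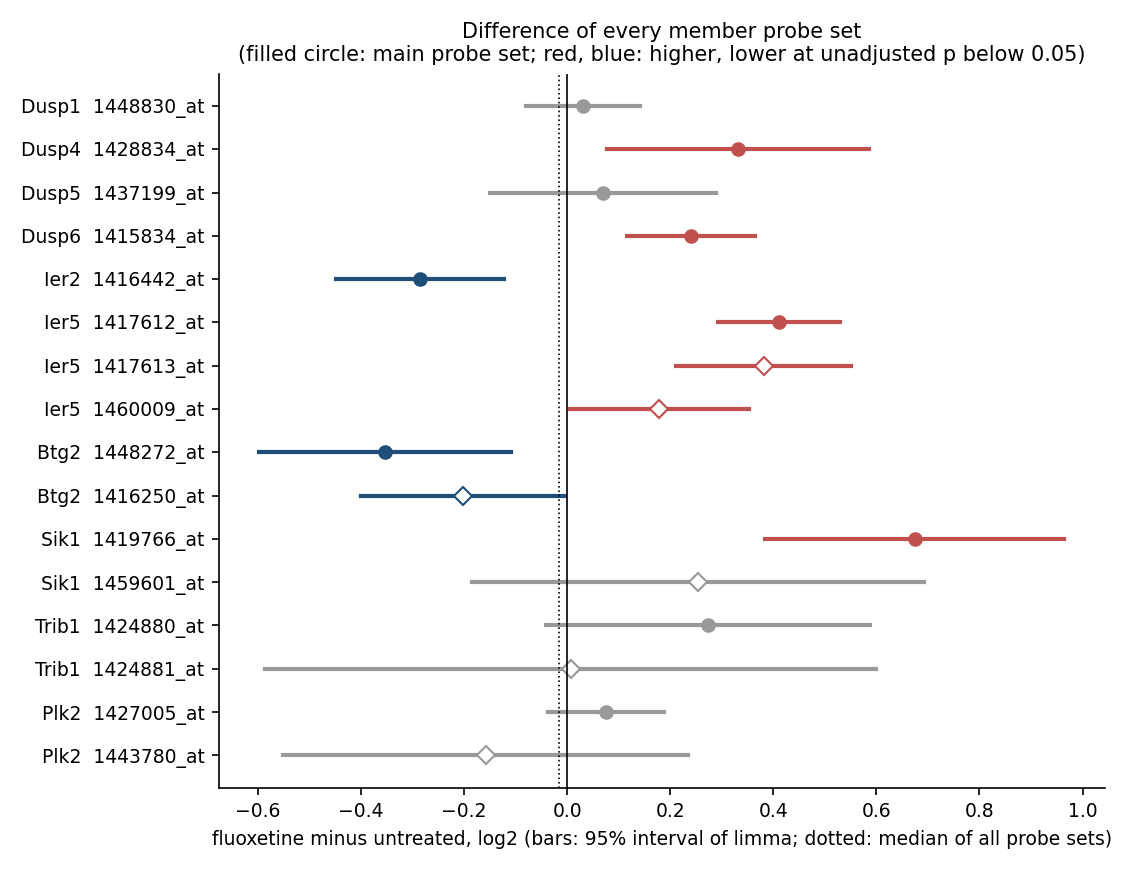
Difference between fluoxetine and untreated (log2, horizontal) for each of the 16 probe sets with its 95% interval from limma; filled circles mark the main probe set of a gene, open diamonds its others, red and blue an unadjusted p below 0.05. All 3 Ier5 probe sets lie right of zero and both Btg2 probe sets left of it, while the second probe sets of Sik1, Trib1 and Plk2 have wide intervals that cover zero.

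Btg2, an antiproliferative gene of the BTG and TOB family that promotes mRNA deadenylation, was lower with fluoxetine on both of its probe sets. The main one (1448272_at) read 8.87 and 8.82 with fluoxetine and 9.35 and 9.05 without, a difference of −0.35 (SE 0.10), or 1.28-fold lower, with an adjusted p of 0.456 in limma. The other (1416250_at) read 8.37 and 8.22 against 8.51 and 8.49, a difference of −0.20 (SE 0.08) with an adjusted p of 0.563 in limma. On Ier2 and on both Btg2 probe sets the arrays fell in the same order, untreated replicate 1 highest and fluoxetine replicate 2 lowest. The size of the main difference rested on untreated replicate 1, without which it was −0.20, and its call was lost without fluoxetine replicate 2, where it was −0.33. The second probe set differed by −0.13 without that array and kept its call in 1 of the 4 fits with an array left out. Without fluoxetine replicate 2 the lower calls among the members therefore went from 3 to 1, that of Ier2.

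Sik1, a kinase whose transcription is driven by cAMP and CREB, had the largest difference of the 16 probe sets. Its main probe set (1419766_at) read 7.10 and 7.12 with fluoxetine and 6.31 and 6.56 without. The fluoxetine arrays were nearly equal, and both lay well above the untreated pair, whose own spread was 0.25. The difference was 0.67 (SE 0.12, 95% interval 0.38 to 0.96), or 1.60-fold, with an adjusted p of 0.357 in limma, and it was the only member probe set past 1.5-fold. It ran from 0.55 to 0.80 with an array left out and kept its unadjusted call in all 4 fits. The second Sik1 probe set (1459601_at) was near the floor of the array, at 1.13 and 1.09 against 0.68 and 1.03, and its difference of 0.25 (SE 0.19) did not pass.

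Trib1, a pseudokinase that brings substrates to the ubiquitin ligase Cop1, did not pass with either probe set. The main one (1424880_at) read 7.95 and 7.84 with fluoxetine and 7.81 and 7.43 without, and the difference of 0.27 (SE 0.13) turned on untreated replicate 2. Without that array it was 0.08, and without untreated replicate 1 it was 0.46. The second probe set (1424881_at) was dimmer, and its untreated arrays, at 5.84 and 5.03, lay on either side of the fluoxetine arrays at 5.39 and 5.50. Striatal markers were also most unlike the rest on untreated replicate 2, and their part in the Trib1 values was not tested.

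Plk2, the polo-like kinase of synaptic scaling, was bright on its main probe set (1427005_at), at 12.18 and 12.15 with fluoxetine and 12.04 and 12.13 without. The groups were narrowly apart, and the 95% interval of the difference of 0.08 ran from −0.04 to 0.19. Its dim second probe set (1443780_at) read 5.32 and 5.28 against 5.64 and 5.27 and overlapped.

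**Figure D4:**
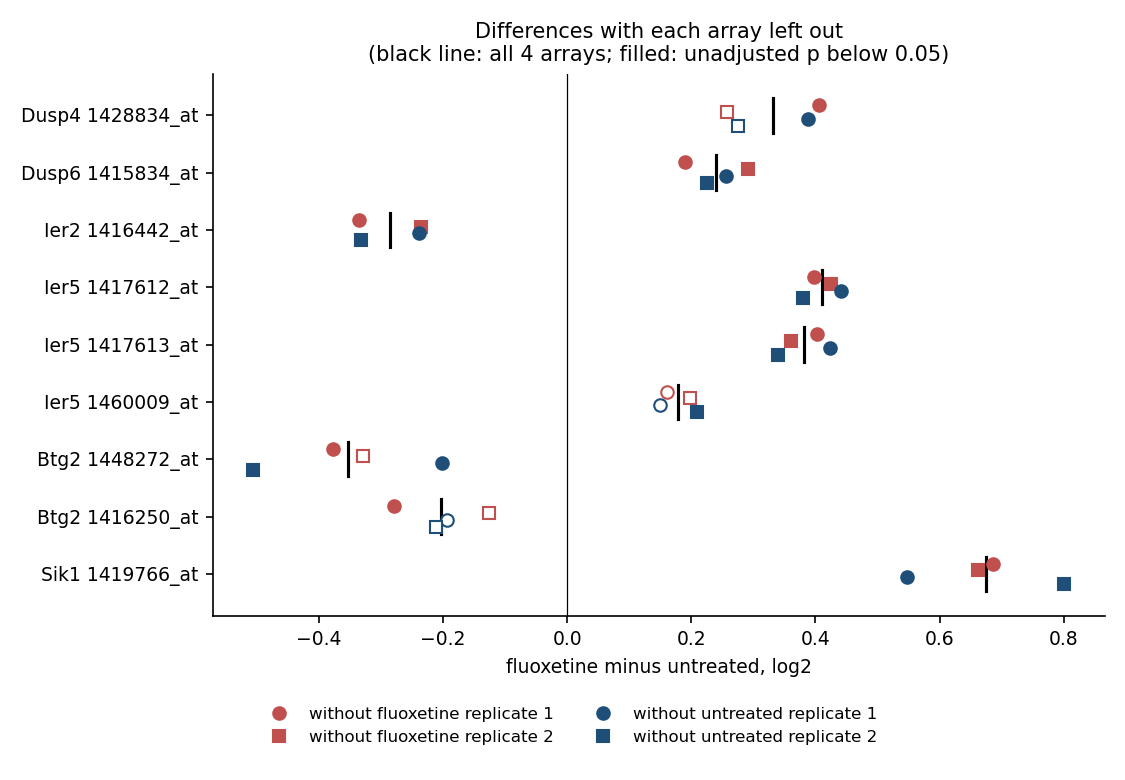
Log2 difference between fluoxetine and untreated for the 9 probe sets at an unadjusted p below 0.05, with all 4 arrays (black line) and with each array left out (symbols, filled where the unadjusted p stays below 0.05). Sik1, Dusp6, Ier2 and the first 2 Ier5 probe sets keep filled symbols throughout, while Dusp4, Btg2 and the last Ier5 probe set have open ones.

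With an array left out, one group has a single array, which is then assumed to vary like the pair of the other group. In those 4 fits the probe sets of Dusp6, Ier2 and Sik1 and 2 of those of Ier5 kept both direction and unadjusted call. Without fluoxetine replicate 1, 5 member probe sets were called higher and 3 lower, against 1.83% and 1.08% of all probe sets. Without fluoxetine replicate 2 they were 4 and 1, against 5.07% and 2.56%. Without untreated replicate 1 they were 6 and 2, against 4.51% and 4.25%, and without untreated replicate 2, the array with the most striatal signal, 5 and 2, against 5.43% and 3.64%.

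Genes around these members were taken from 8 pathway lists with 91 entries, of which 79 were measured with a named probe set and 12 are not analysed here. The lists, like the members, were chosen with earlier results of these data known. Counts set beside the background are therefore description and no test. On main probe sets, 12 of the 79 were higher at an unadjusted p below 0.05 in limma and 0 lower, with 67 short of the threshold. By the same rule 3.25% of all main probe sets were higher and 3.34% lower; of those above the median level, where 74 of the 79 lie, 4.47% were higher and 2.23% lower. The 12 became 5 without fluoxetine replicate 1, 6 without untreated replicate 1 and 7 without the intensity trend, where 0.934%, 2.65% and 1.44% of all main probe sets were higher. The median difference of the 79 was 0.01, against −0.02 over all main probe sets, and none had an adjusted p below 0.05. With a second quantile normalization 12 were higher and 3 lower, against 2.92% and 5.56% of all main probe sets in that setting.

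Of the 12 calls, 9 were of feedback inhibitors or of relatives of the non-phosphatase members, and the others were Dusp7, Sos2 and Etv5. Differences between the lists were not tested. Of 11 other feedback inhibitors of Ras and receptor kinases, 4 were higher and 0 lower, with 7 short of the threshold and a median difference of 0.13. Spred1, a membrane inhibitor of the Ras to Raf step, read 10.70 and 10.64 with fluoxetine and 10.31 and 10.36 without, a difference of 0.34 (SE 0.06). Its groups were well apart, and the call held with each array left out. Spry4, a Sprouty inhibitor of the same pathway, differed by 0.45 (SE 0.12) and Spred2 by 0.16 (SE 0.05). Another probe set of each had its fluoxetine arrays below its untreated ones without passing, at −0.26 for Spry4 and −0.21 for Spred2. Rasa1, a GTPase-activating protein of Ras, did not pass on its main probe set (0.13, SE 0.06), while its other probe sets were higher by 0.20 and 0.49. The gene count was 1 without fluoxetine replicate 1, where Spred1 alone kept its call, and 2 without the intensity trend.

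**Figure D5:**
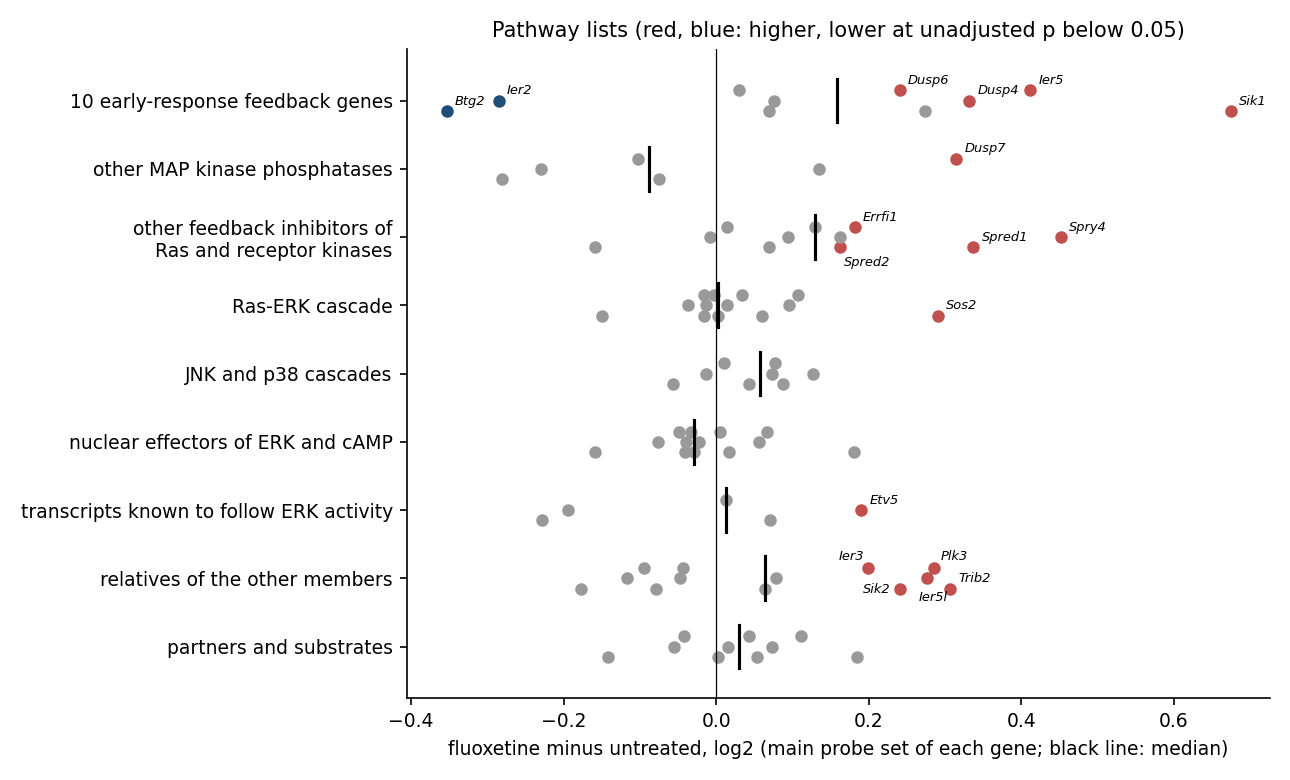
Log2 difference between fluoxetine and untreated for the main probe set of each gene in the member set and in the 8 pathway lists (1 point a gene, black line at the list median; red and blue mark an unadjusted p below 0.05). Of the 12 red points of the pathway lists, 9 belong to the feedback inhibitors and the members' relatives, and the JNK and p38, nuclear effector and partner lists have none.

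In the Ras-ERK cascade, 1 of 13 measured genes was higher, the exchange factor Sos2 (0.29, SE 0.09), with a median of 0.00, and the 13 ran from −0.15 to 0.29. Araf and Rasgrp1 did not pass on the main probe set (0.10 and −0.02), although another probe set of each was higher, by 0.31 and 0.28. Of 8 JNK and p38 cascade genes none passed on its main probe set, although 3 of their 24 probe sets were higher. For the p38 gene Mapk14 the main probe set differed by 0.01 and 2 others by 0.40 and 0.44, and for Map2k4 by 0.04 and 0.26. Of 13 nuclear effectors of ERK and cAMP, among them Srf (0.02), Creb1 (−0.02), Crem (0.18) and the Sik1 substrate gene Crtc1 (−0.08), none passed either. Another probe set of Creb1 was higher by 0.37 and one of Crem by 0.33. Among 5 transcripts known to follow ERK activity, Etv5, an ETS factor, was higher on its main probe set (0.19, SE 0.07) and the other 4 did not pass. Other Etv5 probe sets differed by 0.34, which passed, and by 0.14, which did not. The cyclin gene Ccnd1 differed by 0.01 on its main probe set and by 0.38 on another. Sos2 and Etv5 each kept the call in 1 of the 4 fits with an array left out, that without fluoxetine replicate 2, and without fluoxetine replicate 1 they differed by 0.18 and 0.09. Over the 8 lists, 135 probe sets were not the main one of their gene. Of these, 20 were higher and 1 lower, against 9.79% and 2.61% of all such probe sets in the table. The lower one was of the polo-like kinase gene Plk4 (−0.38). Not all of the 20 are such splits, because some belong to genes whose main probe set was also higher, among them Spred1 and Trib2.

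Of the other 6 MAP kinase phosphatases, Dusp7, a cytoplasmic ERK phosphatase close to Dusp6, was higher: it read 9.71 and 9.51 with fluoxetine and 9.25 and 9.34 without, a difference of 0.31 (SE 0.09). Its groups did not overlap, but the call was lost without fluoxetine replicate 1 (0.21) and without untreated replicate 1 (0.27). The remaining 5 did not pass, and the median of the 6 was −0.09.

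Among 13 measured relatives of the non-phosphatase members, 5 were higher and 0 lower, with 8 short of the threshold and a median of 0.06. Trib2, the paralogue of Trib1, read 10.46 and 10.41 with fluoxetine and 10.10 and 10.16 without, a difference of 0.31 (SE 0.06). Ier5l, the paralogue of Ier5, differed by 0.28 (SE 0.07) and Sik2, a close relative of Sik1, by 0.24 (SE 0.06). For Trib2 and Ier5l the call held with each array left out. The 5 became 2 without fluoxetine replicate 2, 3 without untreated replicate 1 and 3 without the intensity trend. Of 10 partners and substrates, such as the ligase gene Cop1 (0.00) and the class IIa deacetylase gene Hdac5 (−0.06), none passed on its main probe set, and the deadenylase gene Cnot7, whose protein binds Btg2, differed by 0.07 there and by 0.20 and 0.23 on 2 other probe sets. The poly-A controls, 0.24 higher with fluoxetine, stand beside all these counts, and their part was not tested.

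Other genes with array profiles like those of the members were sought by the root mean square distance between log2 profiles over the 4 arrays, each centred on its own mean. Nearest to Ier5 were Vasn (0.02), Bhlhe40 (0.03) and Dlgap2 (0.03). Nearest to Dusp4 were Fbxl21, Ankrd33 and Atf3, and to Dusp6 Cdyl2, 3830406C13Rik and 2610044O15Rik8. Sik1 was nearest to Rbm12b1 (0.03), Prl4a1 and Cdh1, Ier2 to Cd48, Sdad1 and Trpa1, and Btg2 to Dppa3, Pcdhb6 and Slco1a5. With 4 arrays many profiles come close by arrangement alone, and no more is read from these names.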

How the data were processed

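Total RNA was labelled with biotin for Affymetrix 3' arrays, per the labels' protocols. The authors deposited log2 intensities per probe set, made with RMA; affy and limma are also named, per the submitters' processing notes, while versions and a genome build are not given in the sources used here. That the scale is log2 was judged from its range, which reaches 15.1 and starts just below 0. Values that low lie under what plain RMA usually gives, and no source used here says whether a further background step was applied; dim values such as those of the second Sik1 probe set carry that doubt. No alternative changed the background correction, so its effect on dim probe sets was not tested. Of 45101 probe sets, 64 array controls were left out and the other 45037 were fitted without a filter on low values, all 16 member probe sets among them. Of those fitted, 34945 have 1 gene symbol. Groups came from the treatment labels, and replicates were numbered in accession order. Fluoxetine was compared with untreated by limma 3.58.1 in R 4.3.3 (lmFit, then trended eBayes) in a two-sided test adjusted after Benjamini and Hochberg; 2 residual degrees of freedom were joined by 5.32 prior ones. An exact permutation test of 2 against 2 cannot go below p = 0.333. The code was tested on simulated data. Named were all 10 members, the pathway genes with the smallest p of each list (up to 3, at an unadjusted p below 0.05, or else the first of the list; other genes named from the lists were chosen after their values were seen) and the 3 genes nearest in profile. The members and lists were chosen with earlier results of these data known. Genome positions are those of the RefSeq promoter table alone. The 10 alternatives changed normalization, variance prior, probe sets or arrays.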

Additional observations from a re-analysis of the deposited data

How the results depend on the processing

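The 16 member probe sets were refitted under 10 alternatives, and those for the pathway lists were chosen after seeing the data. The fit above the median level held only 13 of the 16, and that with one probe set per gene only 10. Of 151 refits of a member probe set, 131 kept direction and side of an unadjusted p of 0.05, 13 lost the call, 2 gained it (both Trib1 1424880_at) and 5 changed sign, all on probe sets that had not passed. One was Dusp1 after a second quantile normalization (−0.0043). The others came with an array left out, where Dusp5 ran from −0.023 to 0.16, Plk2 1443780_at from −0.34 to 0.026 and Trib1 1424881_at from −0.40 to 0.41, the last negative in 2 of 4 fits. The cause was not tested. With an array left out, member probe sets called lower numbered 1 to 3 and probe sets of the whole table at an adjusted p below 0.05 numbered 0 to 1; the latter was 0 without the intensity trend and 0 with one probe set per gene, against 1 in the main setting. The median difference over members ran from 0.10 to 0.18, the latter over only the 13 probe sets above the median level. No paired analysis was possible because the labels give no replicate number that links arrays of the groups. The second probe sets of Sik1, Trib1 and Plk2 lay below the median level, and their differences had SEs of 0.19, 0.25 and 0.17 and 95% intervals that cover zero.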
